A study of Mus musculus with 14 samples.

Results

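The Notch pathway genes described here are the ligand Jag1, the receptors Notch1, Notch2 and Notch4, the receptor-cleaving proteases Adam10 and Adam17, the DNA-binding factor Rbpj, its co-activator Maml1 and the target gene Hes1. They were taken by symbol from a table of raw read counts for 55487 mouse gene identifiers, in which each of the 9 symbols matched exactly 1 row. All 9 had enough reads to be tested, among 14754 genes tested in all. The table held 14 RNA-seq libraries of monocytes purified from the bone marrow of mouse legs, 90 to 95% pure by flow cytometry according to the labels. Wild-type monocytes were cultured for 3 h in medium (n = 4) or with mouse IL-4 at 20 ng/mL (n = 4), and monocytes deficient for the aryl hydrocarbon receptor (AhR), a ligand-activated transcription factor, in medium (n = 3) or with the same IL-4 (n = 3). Titles numbered the wild-type cultures 1, 2, 3 and 7 and the AhR-deficient cultures 4, 5 and 6. The medium and IL-4 libraries of a number were treated as a pair in the changes given within pairs and in the replicate block. The main tests and the ratio tests compared the groups without pairing. The labels give neither the AhR allele, nor the strain, sex or age of the mice, nor whether a number is an animal or a pool, so p-values measure the spread between these cultures.

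Notch signalling passes between neighbouring cells. A ligand such as Jagged1 on one cell binds a Notch receptor on the next, ADAM10 cuts the receptor outside the membrane, gamma-secretase cuts it inside, and the freed intracellular domain joins RBPJ and a Mastermind-like protein on DNA to switch on repressor genes of the HES and HEY families. ADAM17 can also cut Notch and is best known for releasing TNF from the cell surface. Notch2 signalling is known to favour conversion of classical monocytes into the non-classical, patrolling kind.

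The genotype groups could not be compared free of other differences. Library totals ran from 33432502 to 42885079 counts. Xist, transcribed from the inactive X chromosome of females, was at least 987 CPM (read counts scaled to library size) in every AhR-deficient library and at most 2.12 CPM in every wild-type library. Ddx3y, on the Y chromosome, was 114 to 143 CPM in the wild-type medium libraries and 0 in the AhR-deficient ones, so genotype and sex cannot be told apart here. The Ahr transcript was higher, not lower, in libraries labelled AhR-deficient. It was 15.7 to 26.1 CPM in medium against 11.4 to 14.4 CPM in wild type, and 36.9 to 45.2 against 23.7 to 26.9 CPM with IL-4. A count per gene does not show whether an exon is deleted or the protein is made. The summed level of 10 neutrophil markers was 376 to 868 CPM in wild-type medium and 346 to 607 CPM in AhR-deficient medium, against at least 21500 CPM for 8 monocyte markers. All 8 monocyte markers were detected in each group, and their sum was lower with IL-4, at 14000 to 15500 CPM. Most of that sum was Lyz2, which averaged 16700 CPM in wild-type medium and 8610 with IL-4, and 16600 and 9370 CPM in AhR-deficient cells. Ccr2, a chemokine receptor of classical monocytes, averaged 1280 CPM in wild-type medium and 1710 with IL-4, and 381 and 508 CPM in AhR-deficient cells. The monocyte markers did not all share that direction. In AhR-deficient medium Ly6c2 averaged 1080 CPM against 814, and Csf1r 2460 against 2010. Cd14 (592 against 377) and Fcgr1 (48.5 against 32.1) were also higher there than in wild-type medium. Itgam (170 against 198), F13a1 (2040 against 2080) and Lyz2 were lower.

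The promoters of the 4 genes whose change with IL-4 was called in both genotypes in every alternative analysis are shown first, since their calls held throughout. They come from RefSeq (GRCm38.p6), end at the annotated start or at the first annotated exon before it, and read 5′ to 3′ on the strand of the gene. Capitals mark a match, on either strand, to the AhR response element core GCGTG, which reads CACGC on the other strand, or to the NF-kB pattern, GGGA and CC with 4 bases between them. Jag1, chr2:137116645-137116770, minus strand; Notch2, chr3:98013288-98013526, plus strand; Adam10, chr9:70678732-70678981, plus strand; Adam17, chr12:21373633-21373882, minus strand.
Jag1: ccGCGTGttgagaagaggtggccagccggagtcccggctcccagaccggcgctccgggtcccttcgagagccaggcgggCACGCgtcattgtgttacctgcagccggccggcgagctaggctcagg
Notch2: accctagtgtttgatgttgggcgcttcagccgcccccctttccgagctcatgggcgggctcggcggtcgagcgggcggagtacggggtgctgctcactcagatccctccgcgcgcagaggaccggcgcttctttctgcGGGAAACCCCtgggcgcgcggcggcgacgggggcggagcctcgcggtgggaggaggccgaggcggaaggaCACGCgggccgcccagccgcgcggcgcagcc
Adam10: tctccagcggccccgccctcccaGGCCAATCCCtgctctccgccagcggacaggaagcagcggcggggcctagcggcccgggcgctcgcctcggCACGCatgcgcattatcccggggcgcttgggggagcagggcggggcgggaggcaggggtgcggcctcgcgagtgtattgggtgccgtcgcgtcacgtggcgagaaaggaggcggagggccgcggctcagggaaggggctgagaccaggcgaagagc
Adam17: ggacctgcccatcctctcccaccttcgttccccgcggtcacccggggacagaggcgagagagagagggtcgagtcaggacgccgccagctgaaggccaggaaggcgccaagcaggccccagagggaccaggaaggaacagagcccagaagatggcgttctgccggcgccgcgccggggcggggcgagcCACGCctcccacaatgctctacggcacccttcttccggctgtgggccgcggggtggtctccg
The 250 bases before the RefSeq start were searched on both strands for 5 motifs in the 8 members with a window, Hes1 being absent from the table. GCGTG was found in 6 of the 8 (Jag1, Notch2, Notch4, Maml1, Adam10 and Adam17) and in 28.2% of 32851 windows of all genes. The members' windows were 57.2 to 74% G or C, and the shares over all windows were not matched for base composition. Rbpj was searched over 2 windows, so its count per gene is not quite like a share per window. Jag1 had 2 matches, starting 248 and ending 167 bases before the start at their outer edges. The STAT6 palindrome, TTC and GAA with 4 bases between them and the pattern bound by the factor that IL-4 activates, was found in Notch1 alone, and in 5.85% of all windows. The RBPJ core TGGGAA was found in Rbpj alone and in 21.6% of all windows, and the NF-kB pattern in Notch2, Rbpj and Adam10 and in 17.6%. AP-1 (TGANTCA) was found in none of the 8 and in 6.75% of all windows. A match is a string of letters and no evidence of binding.

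In resting wild-type monocytes the proteases and Notch2 were the highest of the 9 genes, and Jag1, Hes1 and Notch4 the lowest. Levels of different genes are compared as CPM per kilobase of exon, after scaling of the libraries by trimmed mean of M-values (TMM). Adam10 was at 90.6 ± 5.17 CPM per kilobase (SD, n = 4), Adam17 at 68.6 ± 10.8 and Notch2 at 51.5 ± 3.7. Notch1 (19.2 ± 2.22), Maml1 (18.6 ± 1.77) and Rbpj (18.4 ± 4.11) followed and lay within each other's spread. Jag1 was at 2.97 ± 1.34, Hes1 at 0.887 ± 0.0322 and Notch4 at 0.0782 ± 0.00615. Hes1 rested on 56 to 168 reads per library and Notch4 on 11 to 74, so both are measured with less precision than the other 7.

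**Figure D1:**
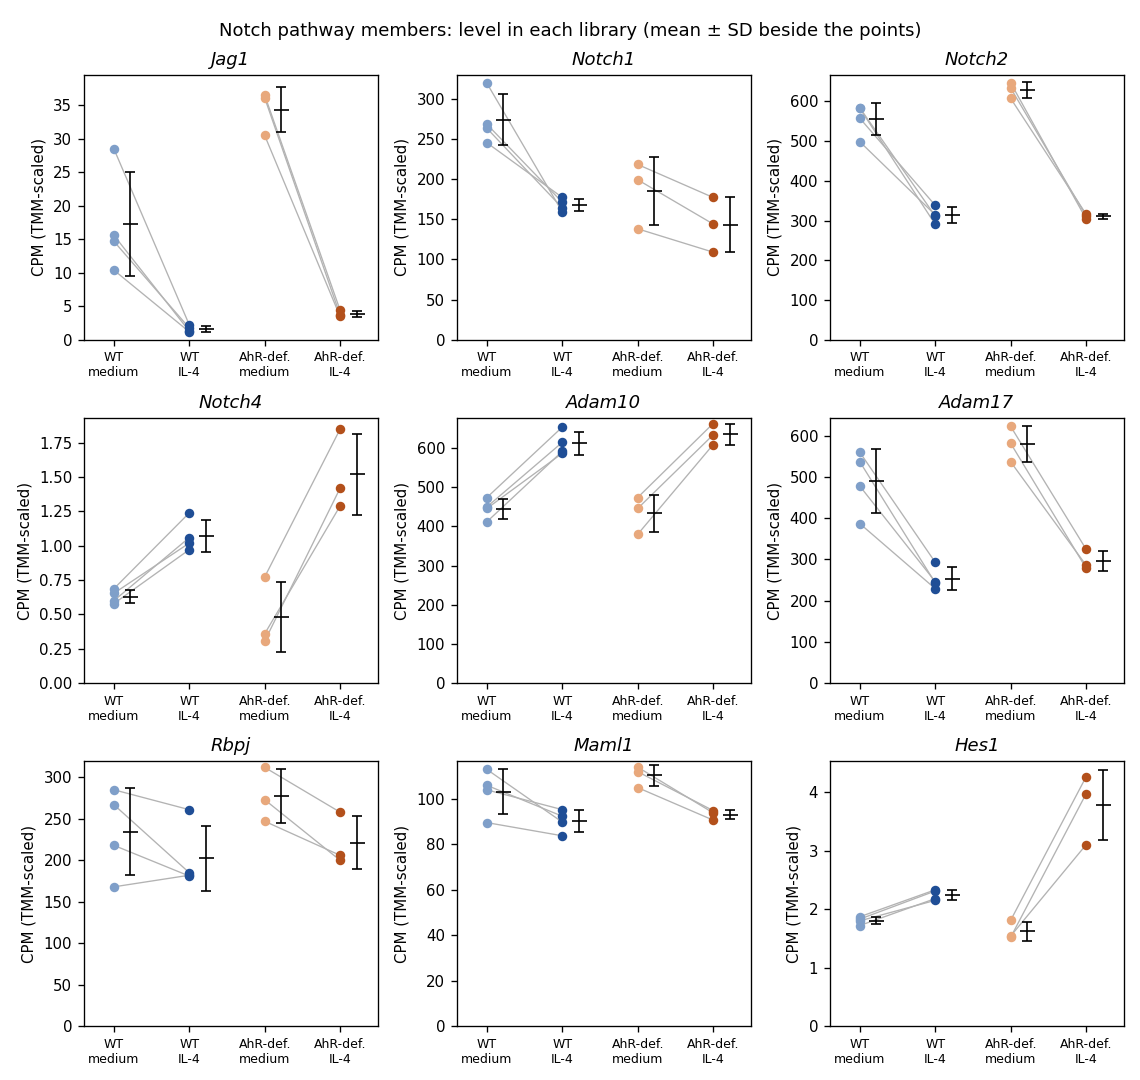
Level of each of the 9 Notch pathway genes in each of the 14 libraries, in TMM-scaled CPM on a linear axis that starts at 0. Points are libraries, grey lines join the medium and IL-4 libraries of 1 title number, and bars beside the points give mean ± SD. Jag1, Notch2 and Adam17 are lower with IL-4 in every pair and Adam10 is higher, while Hes1 is highest in the 3 AhR-deficient IL-4 libraries.

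IL-4 changed most of these genes within 3 h, in different directions. In wild-type monocytes Jag1 fell 10.7-fold, Adam17 fell 1.94-fold, Notch2 1.77-fold, Notch1 1.63-fold and Maml1 1.14-fold, while Notch4 rose 1.7-fold and Adam10 1.37-fold. Rbpj and Hes1 did not pass the test. In AhR-deficient monocytes Jag1 fell 8.87-fold, Notch2 2.02-fold, Adam17 1.96-fold and Maml1 1.18-fold, and Notch4 rose 3.14-fold, Hes1 2.33-fold and Adam10 1.47-fold. Rbpj and Notch1 did not pass there. A gene passed when its adjusted p was under 0.05 in edgeR's quasi-likelihood test, adjusted by the Benjamini-Hochberg method over 14754 genes. The 9 genes therefore gave 2 rises and 5 falls in wild type, where 35.9% of all genes tested were called, 19.4% up and 16.5% down. In AhR-deficient cells they gave 3 rises and 4 falls, where 29.5% of all genes were called, 15.4% up and 14.2% down. With the title numbers as a replicate block, 7 of the 9 were called in wild type and all 9 in AhR-deficient cells, against 42.7% and 36.2% of all genes. Their median log2 difference was -0.21 in wild type and -0.33 in AhR-deficient cells, against 0.01 and -0.01 over all genes tested. Between medium and IL-4 the libraries did not overlap for 7 of the 9 in each genotype, against 33.2% of all genes in wild type and 43.7% in AhR-deficient cells.

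Jag1, the ligand, had the largest change. In wild-type medium it was 10.4, 14.7, 15.6 and 28.5 CPM in numbers 1, 2, 3 and 7, and with IL-4 1.19, 1.76, 1.29 and 2.23 CPM. In AhR-deficient cells numbers 4, 5 and 6 were at 36.1, 36.5 and 30.5 CPM in medium and at 3.7, 4.42 and 3.48 CPM with IL-4. Every IL-4 library lay below every medium library of its genotype, and the wild-type medium libraries spread more than the other groups. The log2 difference was -3.42 ± 0.29 (SE; adjusted p = 4.81e-07) in wild type and -3.15 ± 0.31 (adjusted p = 3.04e-06) in AhR-deficient cells. Within pairs the change in log2(CPM + 0.5), a scale that understates changes of low genes, was -3.41 to -2.68 over 4 wild-type pairs and -3.12 to -2.91 over 3 AhR-deficient pairs. By size the fall ranked 32 from the lowest of 14754 genes in wild type and 31 in AhR-deficient cells.

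Among the receptors, Notch2 and Notch1 were lower with IL-4 and Notch4, the receptor best known from endothelium, was higher. Notch2 was 498, 557, 583 and 582 CPM in wild-type medium and 314, 338, 311 and 290 CPM with IL-4. In AhR-deficient cells it was 646, 633 and 607 CPM in medium and 304, 312 and 316 CPM with IL-4. Neither genotype's groups overlapped, and the IL-4 libraries of the genotypes lay in 1 range. By edgeR the log2 difference was -0.83 ± 0.06 (adjusted p = 7.71e-08) in wild type and -1.02 ± 0.07 (adjusted p = 6.38e-08) in AhR-deficient cells. 

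Notch1 was 319, 263, 268 and 245 CPM in wild-type medium and 159, 164, 171 and 177 CPM with IL-4, without overlap. In AhR-deficient cells it was 138, 218 and 199 CPM in medium and 109, 177 and 144 CPM with IL-4, so the groups overlapped although each of the 3 numbers was lower with IL-4. Number 4 was the lowest in both conditions. Notch1 differed by -0.71 ± 0.15 on the log2 scale (adjusted p = 0.00178) in wild type and -0.36 ± 0.17 (adjusted p = 0.131) in AhR-deficient cells. With the title number as a replicate block, the AhR-deficient difference was -0.37 with an adjusted p of 0.00551. Without AhR-deficient medium number 4 it was -0.54 (adjusted p = 0.0217) and without AhR-deficient IL-4 number 5 also -0.54 (adjusted p = 0.0375).

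Notch4 was low throughout. It was 0.6, 0.579, 0.654 and 0.687 CPM in wild-type medium and 1.06, 0.972, 1.02 and 1.24 CPM with IL-4, and in AhR-deficient cells 0.359, 0.773 and 0.306 CPM in medium and 1.29, 1.85 and 1.42 CPM with IL-4. All 7 pairs were higher with IL-4. Its log2 difference was 0.77 ± 0.25 (adjusted p = 0.0279) in wild type and 1.65 ± 0.29 (adjusted p = 0.000649) in AhR-deficient cells. The wild-type call was lost without any 1 of wild-type medium numbers 1, 2 and 3 or wild-type IL-4 numbers 1 and 7 (adjusted p of 0.0504 to 0.0715). The summed level of 6 endothelial markers was 18.3 to 32.3 CPM in wild-type medium and 134 to 178 CPM with IL-4. That sum was nearly all Pecam1, a gene that leukocytes also express, at 22.8 and 152 CPM on average, while Cdh5, Kdr, Tek, Emcn and Egfl7 were each at most 1.25 CPM in any library. In bulk samples more cells of a type and more RNA per cell cannot be told apart.

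The receptor-cleaving proteases moved apart. Adam10 rose from 412, 446, 474 and 450 CPM in wild-type medium to 592, 587, 654 and 615 CPM with IL-4, and from 380, 474 and 446 to 609, 663 and 634 CPM in AhR-deficient cells. Adam17 fell from 387, 478, 560 and 537 CPM to 229, 246, 293 and 243 CPM in wild type, and from 623, 537 and 582 to 325, 286 and 279 CPM in AhR-deficient cells. No group overlapped its counterpart for either gene. The log2 difference of Adam10 was 0.46 ± 0.07 (adjusted p = 9.95e-05) in wild type and 0.55 ± 0.08 (adjusted p = 9.52e-05) in AhR-deficient cells. That of Adam17 was -0.96 ± 0.11 (adjusted p = 9.5e-06) and -0.97 ± 0.13 (adjusted p = 4.38e-05). Within a library the ratio of Adam10 to Adam17, both per kilobase, went from 1.34 ± 0.154 in wild-type medium to 3.54 ± 0.229 with IL-4 (exact two-sided permutation test, p = 0.0286, the smallest that 4 against 4 libraries allow, and 0.114 after adjustment over 4 ratio comparisons). In AhR-deficient cells it went from 1.1 ± 0.198 to 3.14 ± 0.36 (exact p = 0.1, the smallest that 3 against 3 allow). The ratio of Notch2 to Notch1 was 2.72 ± 0.459 in wild-type medium and 2.47 ± 0.25 with IL-4 (exact permutation p = 0.429), and 4.68 ± 1.3 and 2.96 ± 0.675 in AhR-deficient cells (exact permutation p = 0.1). Adam17 overlaps Iah1 on the opposite strand, and the sources used here do not say how the counting used strand. Iah1 had at most 12.8% of Adam17's count.

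In the nucleus, Rbpj and Maml1 moved little. Rbpj was 168, 218, 285 and 267 CPM in wild-type medium and 182, 181, 261 and 185 CPM with IL-4, and 312, 247 and 273 CPM in AhR-deficient medium and 258, 206 and 200 CPM with IL-4. The groups overlapped in both genotypes, and wild-type number 1 was the 1 pair of 7 that was higher with IL-4. The log2 difference was -0.21 ± 0.16 (adjusted p = 0.348) in wild type and -0.33 ± 0.19 (adjusted p = 0.224) in AhR-deficient cells, where the replicate block gave an adjusted p of 0.0204. Maml1 was 89.6, 106, 104 and 113 CPM in wild-type medium and 83.8, 92.4, 95.3 and 89.8 CPM with IL-4, with overlap, and 112, 105 and 114 CPM in AhR-deficient medium and 94.9, 90.7 and 93.9 CPM with IL-4, without overlap. Its log2 difference was -0.19 ± 0.06 (adjusted p = 0.0318) and -0.24 ± 0.07 (adjusted p = 0.0229). Maml1 was lower with IL-4 in every pair, and the replicate block gave an adjusted p of 0.00581 in wild type and 0.00354 in AhR-deficient cells. Without the block these small falls stayed near the threshold. The wild-type call was lost without wild-type medium number 2, 3 or 7 or wild-type IL-4 number 1 or 7 (adjusted p of 0.0527 to 0.105), and the AhR-deficient call without medium number 4 or 6 or IL-4 number 5 or 6 (adjusted p of 0.0543 to 0.0839).

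Hes1, the target gene that encodes a transcriptional repressor, was higher with IL-4 in all 7 pairs, by different amounts. It was 1.8, 1.87, 1.72 and 1.83 CPM in wild-type medium and 2.15, 2.33, 2.18 and 2.31 CPM with IL-4, without overlap. In AhR-deficient cells it was 1.54, 1.52 and 1.81 CPM in medium and 3.1, 3.97 and 4.26 CPM with IL-4. The 3 AhR-deficient IL-4 libraries were above all 11 others. Its log2 difference was 0.31 ± 0.12 (adjusted p = 0.0651) in wild type, which missed the threshold, and 1.22 ± 0.14 (adjusted p = 1.76e-05) in AhR-deficient cells. Within pairs the change in log2(CPM + 0.5) was 0.21 to 0.27 in wild type and 0.82 to 1.15 in AhR-deficient cells.

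**Figure D2:**
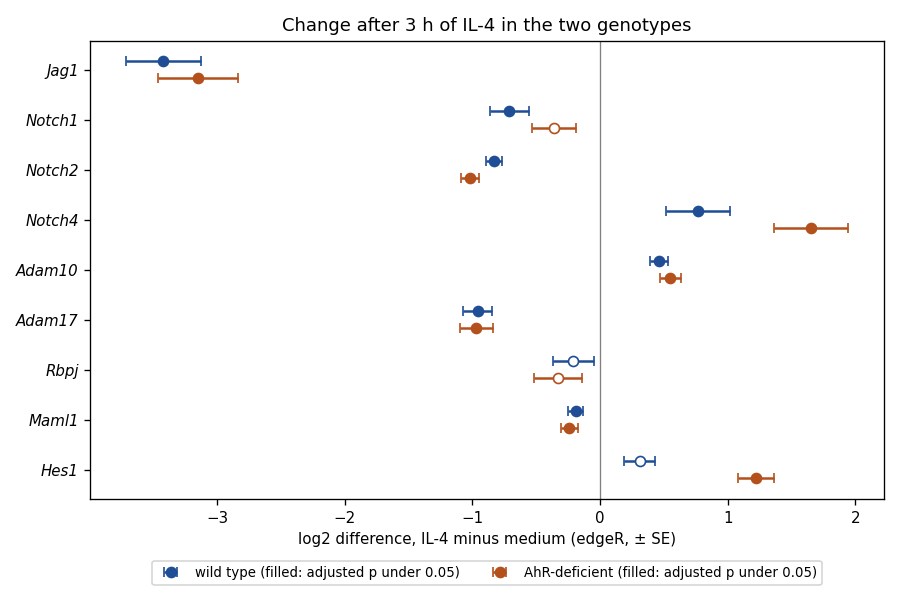
Log2 difference between IL-4 and medium for each of the 9 genes (edgeR, ± SE), in wild type (blue) and AhR-deficient (brown) monocytes; filled points have an adjusted p under 0.05. Jag1 lies lowest at -3.42 and -3.15, the proteases Adam10 and Adam17 lie on opposite sides of 0, and the genotypes stand furthest apart for Hes1 (0.31 and 1.22) and Notch4 (0.77 and 1.65).

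Whether the IL-4 response differed between the genotypes was tested as an interaction, which no member passed and no gene of the 14754 (0%). In edgeR 558 genes had an unadjusted p under 0.05, limma-voom likewise called 0, and the DESeq2 Wald test called 3, none of them a member. The replicate block in DESeq2, added after seeing the data, called 60 genes (0.407%), again no member. Hes1 and Notch4 each had an adjusted p in 24 of the 25 alternatives of this test. In the DESeq2 fit that gave them none they could not be called. Hes1 came closest of the members. Its AhR-deficient response minus its wild-type response was 0.90 ± 0.19 on the log2 scale (unadjusted p = 0.000306, adjusted p = 1), and with the replicate block the adjusted p was 0.212. Notch4 differed by 0.89 ± 0.38 (unadjusted p = 0.0376) and Notch2 differed by -0.19 ± 0.09 (unadjusted p = 0.0478), each with an adjusted p of 1. For Jag1 the responses differed by 0.27 ± 0.41, for Notch1 by 0.34 ± 0.22, for Rbpj by -0.11 ± 0.25, for Adam10 by 0.09 ± 0.10, for Maml1 by -0.05 ± 0.10 and for Adam17 by -0.01 ± 0.16. These errors leave room for differences of either sign, and a missed threshold does not show equal responses.

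Between the genotypes in medium, Jag1 was 1.99-fold higher and Notch1 1.48-fold lower in AhR-deficient monocytes, and the other 7 did not pass. In this comparison 8.11% of all genes were called, 4.16% up and 3.95% down. For 3 of the 9 genes the libraries did not overlap, against 20% of all genes. The AhR-deficient medium libraries had 30.5 to 36.5 CPM of Jag1 against 10.4 to 28.5 CPM in wild type, a log2 difference of 0.99 ± 0.25 (adjusted p = 0.0329). For Notch1 they had 138 to 218 against 245 to 319 CPM, a log2 difference of -0.57 ± 0.16 (adjusted p = 0.0458). Neither call was firm. Jag1's was lost without wild-type medium number 1 (adjusted p = 0.0607) or 2 (0.0957) or AhR-deficient medium number 4 (0.138), 5 (0.0688) or 6 (0.0543), and Notch1's without wild-type medium number 1 (0.105), 2 (0.0933) or 3 (0.0501) or AhR-deficient medium number 4 (0.21) or 6 (0.0762). Notch2 differed by 0.18 (adjusted p = 0.0866) without overlap. Notch4 differed by -0.38 ± 0.29, which became -0.92 (adjusted p = 0.0465) without AhR-deficient medium number 5.

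The mean log2 CPM of neutrophil and eosinophil markers was 4.50, 4.46, 3.49 and 3.13 in wild-type medium numbers 1, 2, 3 and 7 and Jag1 was 10.4, 14.7, 15.6 and 28.5 CPM, the opposite order. In AhR-deficient medium numbers 4, 5 and 6 it was 3.65, 3.58 and 2.60 beside Jag1 at 36.1, 36.5 and 30.5 CPM, where the lowest score and the lowest Jag1 fell in the same library. With this score as a covariate the Jag1 difference was 0.88 (adjusted p = 0.0836) and that of Notch1 -0.57 (adjusted p = 0.107). Without wild-type numbers 1 and 2, Jag1 differed by 0.63 (adjusted p = 0.271). The part of granulocytes in the difference was not tested further.

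With IL-4, Hes1 was the 1 member that passed between the genotypes, 1.68-fold higher in AhR-deficient cells, where 1.62% of all genes were called, 0.956% up and 0.664% down. The groups did not overlap, at 3.1 to 4.26 against 2.15 to 2.33 CPM, and neither did those of 2 further members, against 18.2% of all genes. The log2 difference was 0.75 ± 0.13 (adjusted p = 0.0175). The call was lost without wild-type IL-4 number 1 (adjusted p = 0.0629) or 2 (0.0534), without AhR-deficient IL-4 number 5 (0.084), and with the granulocyte score as a covariate (0.68, adjusted p = 0.124). Jag1 was at 3.48 to 4.42 CPM in AhR-deficient cells against 1.19 to 2.23 CPM in wild type, a log2 difference of 1.26 ± 0.32 that missed the threshold (adjusted p = 0.0604) and passed in DESeq2 (adjusted p = 0.00697). Notch4 did not overlap either, at 1.29 to 1.85 against 0.972 to 1.24 CPM (log2 difference 0.50 ± 0.25, adjusted p = 0.316). Notch1, Notch2, Rbpj, Maml1, Adam10 and Adam17 differed by -0.22 to 0.23.

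**Figure D3:**
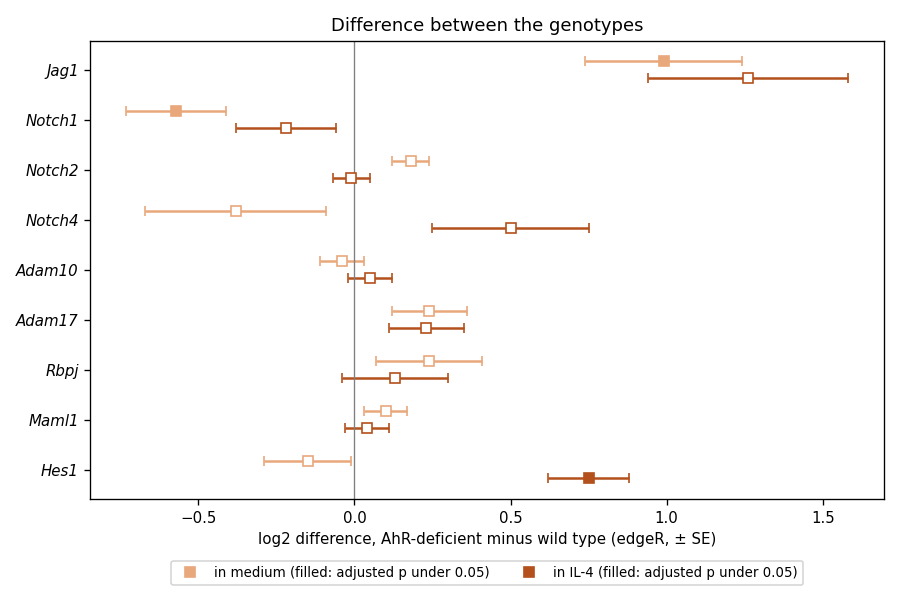
Log2 difference between AhR-deficient and wild-type monocytes for each of the 9 genes (edgeR, ± SE), in medium (light) and with IL-4 (dark); filled points have an adjusted p under 0.05. Jag1 lies to the right of 0 in both conditions (0.99 and 1.26), Notch1 to the left (-0.57 and -0.22), and Hes1 to the left in medium (-0.15) and to the right with IL-4 (0.75).

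The rest of the pathway, 89 genes in 7 lists of which 71 were tested, moved in both directions with IL-4. In wild type 18 rose, 19 fell and 34 did not pass, and in AhR-deficient cells 12 rose, 17 fell and 42 did not, and the medians were 0.04 and 0.03. Of all genes tested 35.9% and 29.5% were called, with medians of 0.01 and -0.01. Of the other ligands and the receptor Notch3, only Jag2 was tested among 7, and Dll1, Dll4 and Notch3 averaged at most 0.182 CPM in any group. Jag2, the other Jagged ligand, was 4.84 CPM in wild-type medium and 4.15 with IL-4 (adjusted p = 0.485), and 6.36 and 4.18 CPM in AhR-deficient cells (adjusted p = 0.0795, and 0.0316 with the replicate block). No subunit of gamma-secretase rose: of 7 tested, 5 fell in wild type and 2 in AhR-deficient cells (Psen2 and Aph1a), where 16.5% and 14.2% of all genes fell. The call of Aph1a in AhR-deficient cells was lost without medium number 6 or IL-4 number 4 or 5 (adjusted p of 0.0555 to 0.0742). Psen2, a catalytic subunit, went from 38.3 to 22.4 CPM in wild type (log2 difference -0.77, adjusted p = 1.13e-05) and from 33.3 to 22.8 CPM in AhR-deficient cells (-0.55, adjusted p = 0.00102).

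Enzymes that mature or sugar the receptors split, with 2 of 6 up and 2 down in each genotype. Those higher were Furin, the protease that cuts the receptors during maturation, and the fringe enzyme Rfng in wild type, and Rfng and Poglut1, which adds glucose to Notch, in AhR-deficient cells, all 3 named after their values were seen. Pofut1, which adds the fucose that Notch needs to bind ligand, fell by 0.62 in wild type (adjusted p = 0.000547) and by 0.97 in AhR-deficient cells (adjusted p = 5.45e-05), on the log2 scale. Lfng, which extends that fucose and shifts the choice of ligand, fell by 0.55 (adjusted p = 0.0019) and 0.59 (adjusted p = 0.00396). The list of partners and inhibitors of the proteases also held other ADAM proteases, which were among the rises in both genotypes. Of its 13 tested genes, 5 rose and 2 fell in wild type and 4 rose and 2 fell in AhR-deficient cells. Timp2, an inhibitor of metalloproteases, rose by 1.28 (adjusted p = 3.66e-05) and 1.02 (adjusted p = 0.0015). Rhbdf2, which carries ADAM17 to the surface, fell by 0.42 (adjusted p = 0.00407) and 0.44 (adjusted p = 0.0087). Tspan33, a tetraspanin that pairs with ADAM10, fell by 0.83 (adjusted p = 0.00901) and 1.20 (adjusted p = 0.00202). Tspan5, another tetraspanin of the list, named after its values were seen, was called higher in both genotypes. Within pairs its change in log2(CPM + 0.5) was 0.16 to 0.38 in wild type and 0.31 to 0.47 in AhR-deficient cells.

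Of 15 tested genes for trafficking and turnover, 3 rose and 3 fell in wild type and 2 rose and 4 fell in AhR-deficient cells. Numbl, a relative of the Notch inhibitor Numb, rose by 1.5 (adjusted p = 7.56e-07) and 1.28 (adjusted p = 1.93e-05), from 2.80 to 7.92 CPM in wild type. Neurl3, a ubiquitin ligase of the Neuralized family, fell by 1.28 (adjusted p = 5.07e-07) and 1.08 (adjusted p = 1.44e-05), and Dtx4, of the Deltex family, by 0.65 and 0.66. Of 23 nuclear cofactors, 8 rose and 5 fell in wild type and 4 rose and 5 fell in AhR-deficient cells. Maml3, a relative of Maml1, fell by 0.64 and 0.55, and Kat2b, a histone acetyltransferase, by 0.64 and 0.44. Of the other HES, HEY and related genes 6 of 14 were tested. None was called higher in the main test, while the replicate block called 1 higher in AhR-deficient cells and 0 in wild type. Id2 and Id3, inhibitors of helix-loop-helix factors, fell by 0.86 and 0.85 in wild type and by 0.51 and 1.10 in AhR-deficient cells. Hes6 was 14.9 ± 3.05 CPM in wild-type medium and 15.8 ± 2.07 with IL-4 (adjusted p = 0.692).

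Genes of non-classical monocytes, the state that Notch2 signalling is known to favour, were mostly lower with IL-4. Of 11 tested, 8 fell and 1 rose in wild type and 5 fell and 1 rose in AhR-deficient cells, with medians of -0.70 and -0.59, beside 16.5% and 14.2% of all genes lower and all-gene medians of 0.01 and -0.01. The 1 that rose was Cd36, a scavenger receptor, named after its values were seen. With the replicate block 10 and 8 fell. Cx3cr1, a chemokine receptor, went from 742 to 223 CPM in wild type (log2 difference -1.73, adjusted p = 6.36e-07) and from 812 to 256 CPM in AhR-deficient cells (-1.66, adjusted p = 5.51e-06). Treml4 fell by 2.41 and 2.29, Ceacam1 by 1.24 and 1.33, and Itgal, the integrin chain of LFA-1, by 0.99 and 1.05, all past the threshold. None of the 11 passed between the genotypes, in medium or with IL-4. Lower levels with IL-4 were not particular to this list. The monocyte markers other than Ccr2 also averaged lower with IL-4 in both genotypes. In wild type Cd14 went from 377 to 90.6 CPM, Lyz2 from 16700 to 8610 and Ly6c2 from 814 to 773, while Ccr2 went from 1280 to 1710. The IL-4 calls given here for Psen2, Pofut1, Lfng, Timp2, Rhbdf2, Tspan33, Numbl, Neurl3, Dtx4, Maml3, Kat2b, Id2, Id3, Cx3cr1, Treml4, Ceacam1 and Itgal passed in every alternative analysis.

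**Figure D4:**
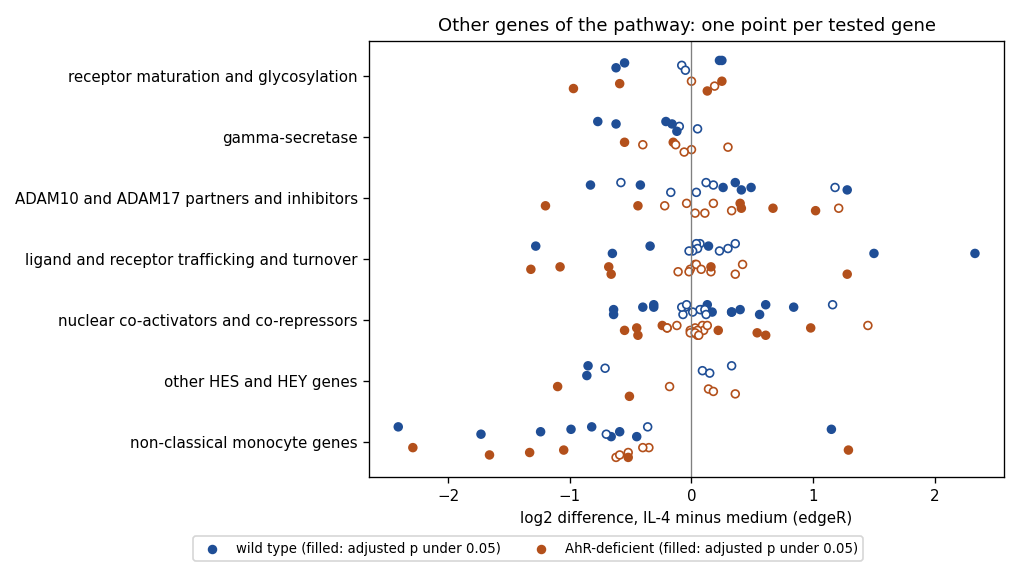
Log2 difference between IL-4 and medium (edgeR) for the tested genes of 7 lists around the Notch pathway, 1 point per gene, in wild type (blue) and AhR-deficient (brown) monocytes; filled points have an adjusted p under 0.05. Points lie on both sides of 0 in most lists, no filled gamma-secretase point lies above 0, and the non-classical monocyte genes lie below 0 apart from 1.

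Between the genotypes 8 of the 71 tested pathway genes were higher and 9 lower in AhR-deficient medium, where 8.11% of all genes were called. In medium the calls of Kat2b, Pofut1, Rhbdf2, Timp2, Tle1 and Tspan33 were each lost without AhR-deficient number 4 (adjusted p of 0.117 to 0.215) and without wild-type number 2 (0.0541 to 0.1), and that of Timp2 also in limma-voom (adjusted p = 0.0989). That of Adam8 in medium was lost without AhR-deficient number 4 (adjusted p = 0.0685). With IL-4, where 1.62% of all genes were called, 1 was higher, Adam8 (log2 difference 1.12 ± 0.17, adjusted p = 0.00763), and 3 were lower, Timp2 (-0.97 ± 0.18, adjusted p = 0.0259), Tle1 (-0.33 ± 0.07, adjusted p = 0.0365) and Tle4 (-0.22 ± 0.05, adjusted p = 0.0459). Adam8 and Tle1 were named after their values were seen, because so few passed. Adam8 is a membrane protease related to Adam10, and Tle1 and Tle4 are Groucho co-repressors that HES proteins recruit. With single libraries left out, the differences with IL-4 ran from 0.99 to 1.30 for Adam8 and from -1.14 to -0.84 for Timp2. They ran from -0.38 to -0.28 for Tle1 and from -0.25 to -0.21 for Tle4. None of these calls held in every such fit. Adam8's was lost without AhR-deficient IL-4 number 4 (adjusted p = 0.0544) or 5 (0.0536), Timp2's without wild-type number 1, 2 or 7 or AhR-deficient number 4 or 5 (0.052 to 0.127), Tle1's without any IL-4 library other than wild-type number 7 (0.0541 to 0.154), and Tle4's without any of the 7 (0.057 to 0.179).

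The genes most like Jag1 across the 14 libraries were chosen by their values, so that their fall with IL-4 is part of the choice. Likeness was the root mean square difference between log2 CPM values centred on each gene's mean, among genes with a mean log2 CPM of at least 1. The 5 nearest were Clec4d (0.446) and Clec4e (0.45), paired C-type lectin receptors, Ccrl2 (0.492), Gpr84 (0.507) and the cytokine Tnf (0.512), where Jag1 itself varied with an SD of 1.82. Tnf differed with IL-4 by -3.34 in wild type and -2.93 in AhR-deficient cells, and Clec4d by -3.84 and -3.39. The genes most like Hes1 were Npc1 (0.212), Slc37a3 (0.222), Plin2 (0.228), Castor1 (0.232) and Ugcg (0.233), beside an SD of 0.46 for Hes1. Npc1 differed with IL-4 by 0.46 and 0.76 and Plin2, which coats lipid droplets, by 0.33 and 0.62, beside 0.31 and 1.22 for Hes1.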

How the data were processed

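RNA from 14 monocyte libraries was made with a stranded messenger RNA kit and sequenced as paired reads on a NovaSeq instrument, per the labels' protocols. The authors deposited raw read counts per gene, 1 column per library. FastQC, STAR and mm10 are named without versions, per the submitters' processing notes. No source used here names the program that counted reads, its strand setting or a filter. Symbols and exon lengths came from GENCODE M21, which matched 55394 of 55487 identifiers without their version.

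The deposited counts went into edgeR 4.0.16 under R 4.3.3 (filterByExpr on the 4 groups, TMM scaling, quasi-likelihood fit with 1 mean per group over all 14 libraries, 10 residual degrees of freedom, Benjamini-Hochberg adjustment over 14754 genes). The genes kept held at least 99.95% of each library's counts. Standard errors are the log2 difference divided by the square root of F. Steps were tested on simulated counts. Title numbers pair the libraries: after removal of group means, libraries of a number correlated at r of 0.17 to 0.706 over 10575 genes, and 7 of 7 matched their own number best. The lowest r was that of number 7, which did not match its own number best over 8688 genes (r = 0.118). Its medium and IL-4 libraries had 376 and 685 CPM of neutrophil, 28.7 and 60.0 CPM of eosinophil and 87.7 and 18.0 CPM of erythroid markers, whose part in its paired changes was not tested. Alternatives used DESeq2 1.42.0, limma 3.58.1, other scalings and filters, the replicate block, the granulocyte score, and left-out libraries. The replicate block with limma-voom or DESeq2 was added after seeing the data.

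The genes, lists and tests were chosen with earlier results of these data known. All 9 members were named, up to 4 genes of each other list by the smallest p in wild type, and the 5 genes nearest to Jag1 and Hes1. A few single-gene results are not reported here.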

Additional observations from a re-analysis of the deposited data

Results flagged for a closer look

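Rbpj stood out in 1 library. Wild-type IL-4 number 3 had 261 CPM, while the other three were between 181 and 185 CPM, a gap beyond Dixon's 95% critical value for 4 samples. The same number was also the highest in wild-type medium, at 285 CPM. Of 18 groups of 4 libraries checked over the 9 genes this was the 1 flag, and chance alone flags about 1 in 20.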

How the results depend on the processing

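Over the 9 genes, 871 alternative results were computed; 789 kept their direction and side of the threshold, 41 fell short of it, 14 newly passed it and 27 changed sign. The IL-4 calls of Jag1, Notch2, Adam10 and Adam17 held in all 20 alternatives in wild type and all 18 in AhR-deficient cells, as did those of Hes1 and Notch4 in AhR-deficient cells in 18 of 18. Notch1 passed in wild type in 19 of 20, failing without wild-type numbers 1 and 2 (adjusted p = 0.104). Hes1 passed in wild type in 0 of 20 (adjusted p of 0.0541 to 0.34). Members called higher with IL-4 in wild type went from 2 to 1 without a filter, without wild-type numbers 1 and 2, and with the replicate block in DESeq2, and were 1 to 2 with single libraries left out. Without a filter Notch4 had an adjusted p of 0.059, and Maml1 had 0.0646 in the model of only the groups compared. Members higher in AhR-deficient medium went from 1 to 2 in DESeq2, to 0 with only the groups compared, with the granulocyte score as covariate or without wild-type numbers 1 and 2, and were 0 to 1 with single libraries left out. Those lower went from 1 to 0 under the same 3 settings and were 0 to 2 with single libraries left out. Members higher in AhR-deficient cells with IL-4 went from 1 to 2 in DESeq2, without a filter and with only the groups compared, to 0 with the granulocyte score or without wild-type numbers 1 and 2, and were 0 to 1 with single libraries left out. The cause of these changes was not tested.

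The 27 changes of sign were all of differences that had not passed. With single libraries left out, the difference between the genotypes in medium ran from -0.11 to 0.05 for Adam10, and that with IL-4 from -0.05 to 0.03 for Notch2. The interaction ran from -0.08 to 0.09 for Adam17, from -0.08 to 0.45 for Jag1, from -0.10 to 0.01 for Maml1 and from -0.24 to 0.03 for Rbpj. Without wild-type numbers 1 and 2, Rbpj became -0.00 in medium and -0.01 with IL-4, Notch2 became 0.06 with IL-4, and the interaction became 0.08 for Adam17 and 0.00 for Maml1. With the granulocyte score the differences with IL-4 became -0.01 for Adam10, -0.04 for Maml1 and -0.05 for Rbpj. With DESeq2 size factors and in DESeq2, Notch2 with IL-4 and the interaction of Adam17 became 0.00, and that interaction was 0.02 without a filter and 0.01 with a filter of 1 CPM in 3 libraries.

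With the title numbers as a replicate block, the members called were 2 higher and 5 lower in wild type and 3 higher and 6 lower in AhR-deficient cells, where Notch1 and Rbpj joined; in edgeR the block changed no other call of a member. With the block in DESeq2, added after seeing the data, Rbpj also passed in wild type (-0.21, adjusted p = 0.025) and Notch4 fell short there (0.76, adjusted p = 0.0935). The block in edgeR called 42.7% of all genes in wild type and 36.2% in AhR-deficient cells, and the block in DESeq2 34.3% and 29%. Over 8688 genes with a mean log2 CPM of at least 3, libraries of a number correlated at r of 0.118 to 0.716 and 6 of 7 matched their own number best. No number occurs in both genotypes, so the genotype comparisons took only a random block. Depth limits Notch4 and Hes1 most.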

Other observations

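Heyl, a HEY-family repressor gene and a known Notch target, was too low to be tested and was chosen after its values were seen. Its reads summed to 2 over the 4 wild-type medium libraries and to 34 over the 4 with IL-4, and to 1 and 23 over the 3 AhR-deficient libraries of each kind. Scaled to library size the ratio of IL-4 to medium was 15.9 in wild type (95% exact interval 4.09 to 137) and 22.3 in AhR-deficient cells (3.63 to 920), where the intervals cover counting error only. Each IL-4 library had 2 to 14 reads and each medium library 0 or 1. In the edgeR fit without a filter on low counts the adjusted p was 0.00271 in wild type and 0.00841 in AhR-deficient cells.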
